A study of Oryza sativa with 4 samples.

Results

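A set of 4 probes for rice cDNAs of cytokinin breakdown, conjugation and response are described here, out of 21495 probes that are not controls on a 2-colour Agilent array. They are AK101022, described as the Arabidopsis thaliana cytokinin oxidase CKX6, AK111866, described as the maize cis-zeatin O-glucosyltransferase ciszog1, AK106429, described as the tobacco cytokinin-regulated kinase CRK1, and AK060655, described as the Brassica oleracea cytokinin-binding protein CBP1. These descriptions name the closest known relative and were not made for the rice genes themselves. The probes were chosen by their low transgenic over wild type ratio in the mean of all 4 arrays. That mean and its parts in each construct are therefore given as descriptions, without a test.

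RNA came from branching panicles of rice TP309. The transgenic plants expressed either a double-stranded RNA interference construct (dsRNAi) or an antisense RNA against RFL, the rice counterpart of the floral regulator LEAFY, and the plants they were set against were wild type. On each of the 4 arrays a transgenic and a wild type sample were labelled with different dyes, with 2 arrays for dsRNAi and 2 for antisense. In each construct array 1 had the transgenic RNA in Cy5 and array 2 in Cy3. The labels used here give no promoter, line number, plant age or number of plants. They do not settle whether the antisense pools were separate, so SE and p-values measure the spread between arrays, which may be technical. Construct, scan day and version of the scanner software changed together, so a difference between constructs cannot be told apart from these. In whole panicles, fewer cells of a type and less RNA per cell cannot be told apart either.

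Cytokinins are adenine-derived hormones that keep meristem cells dividing. Cytokinin oxidases degrade them irreversibly, O-glucosyltransferases store zeatins as glucosides, and histidine kinase receptors pass the signal through phosphotransfer proteins to response regulators. In rice panicles, lower activity of a cytokinin oxidase in the inflorescence meristem is known to give more grains.

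The transgenic channels had 16106 to 18191 probes well above background and the wild type channels 14722 to 17270, and 17997 probes were tested. No probe was described as RFL or LEAFY (0 of 21495), so the knock-down itself could not be checked. The 35 MADS-box probes were taken as markers of floral tissue and the 11 KNOX probes as markers of meristems. Of the MADS-box probes 27 were well above background in all 4 transgenic channels and 25 in all 4 wild type channels. Of the KNOX probes 10 and 9 were. In the mean of both constructs 13 of 29 tested MADS-box probes were higher and 5 lower, and 5 of 11 KNOX probes higher and 1 lower, where 20.5% of all probes were higher and 21.3% lower. The mean log2 level of the KNOX probes ranged from 8.92 to 9.04 over transgenic and from 8.07 to 8.72 over wild type channels, and that of the MADS-box probes from 9.91 to 10.11 over transgenic and from 9.66 to 9.96 over wild type channels. Among probes for other tissues, set against the same shares, 3 of 7 tested anther and pollen probes were higher in transgenic panicles and 0 lower, 5 of 30 leaf probes higher and 8 lower, 6 of 34 vascular probes higher and 12 lower, and 0 of 7 seed storage probes higher and 1 lower. The mean log2 level of the vascular probes ranged from 7.94 to 7.98 over transgenic channels and from 7.95 to 8.33 over wild type channels, and that of the anther and pollen probes from 9.30 to 9.48 over transgenic and from 8.80 to 9.31 over wild type channels. For the leaf probes it ranged from 8.56 to 9.32 over transgenic and from 8.55 to 9.58 over wild type channels. In the vascular list 4 of 41 probes, and in the anther and pollen list 6 of 13, were well above background in no channel. All marker lists were made by words in the descriptions, the vascular list by cellulose synthase, laccase or cinnamyl alcohol. They can hold probes that are not particular to the tissue. The part of these marker groups in the results below was not tested.

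The cytokinin oxidase AK101022 had the lowest ratio of the 4 probes. Its log2 ratio of transgenic over wild type was -1.38 and -1.28 on dsRNAi arrays 1 and 2, and -2.21 and -2.27 on antisense arrays 1 and 2. All 4 arrays were below 0. The construct means were -1.33 ± 0.069 for dsRNAi and -2.24 ± 0.044 for antisense (SD, n = 2 arrays each), so that the transcript was 2.51-fold lower than wild type in dsRNAi and 4.73-fold lower in antisense. Over the 4 arrays the mean was -1.78 ± 0.53 (SD), 3.44-fold lower, at place 258 when the 17997 probes were ordered from the lowest ratio.

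The ciszog1 relative AK111866 was lower than wild type in both constructs. Its log2 ratio was -1.58 and -1.26 on the dsRNAi arrays and -1.74 and -1.51 on the antisense arrays. The constructs overlapped, with means of -1.42 ± 0.23 for dsRNAi and -1.62 ± 0.16 for antisense (SD, n = 2). The mean over 4 arrays was -1.52 ± 0.20, 2.87-fold lower. This was the dimmest of the 4 probes, and the size of its fall depended on the background correction. Transgenic spots read 185 and 100.2 units on the dsRNAi arrays, over a local background of 77 and 51, and 135 and 94.5 units on the antisense arrays, over 75 and 48. Wild type spots read 177 and 260.3 units on the dsRNAi arrays, over 49 and 78, and 215 and 401 units on the antisense arrays, over 49 and 76. These are raw units, before background correction and the loess step between the dyes. On dsRNAi array 1 the transgenic and wild type spots read 185 and 177, so the ratio of -1.58 there rests on these steps. With a normexp offset of 10 in place of 50 the mean was -2.15, and in the deposited scanner ratios it was -3.01, so the sign was the same on these 3 scales while the size moved.

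The cytokinin-regulated kinase AK106429 is matched to a receptor-like kinase whose transcript is lowered by cytokinin in tobacco. Its log2 ratio was -1.84 and -1.61 on the dsRNAi arrays and -1.22 and -0.88 on the antisense arrays. All 4 arrays were below 0, here with the lower ratios in dsRNAi. The means were -1.73 ± 0.16 for dsRNAi, 3.31-fold lower, and -1.05 ± 0.24 for antisense, 2.07-fold lower (SD, n = 2). Over all 4 arrays the mean was -1.39 ± 0.42.

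The cytokinin-binding protein AK060655 was the brightest of the 4 probes and had the smallest fall. Its log2 ratio was -0.50 and -0.62 on the dsRNAi arrays and -0.95 and -0.83 on the antisense arrays. The mean over 4 arrays was -0.73 ± 0.21, 1.66-fold lower. The transgenic spot was saturated on dsRNAi array 1, with 34 of 49 pixels at the scanner's limit, and the wild type spot on antisense array 2, with 61 of 61 pixels. A saturated spot gives a lower bound for its own channel. On the 2 arrays without saturation the ratio was -0.62 for dsRNAi and -0.95 for antisense, and with the saturated spots left out the mean was -0.79.

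**Figure D1:**
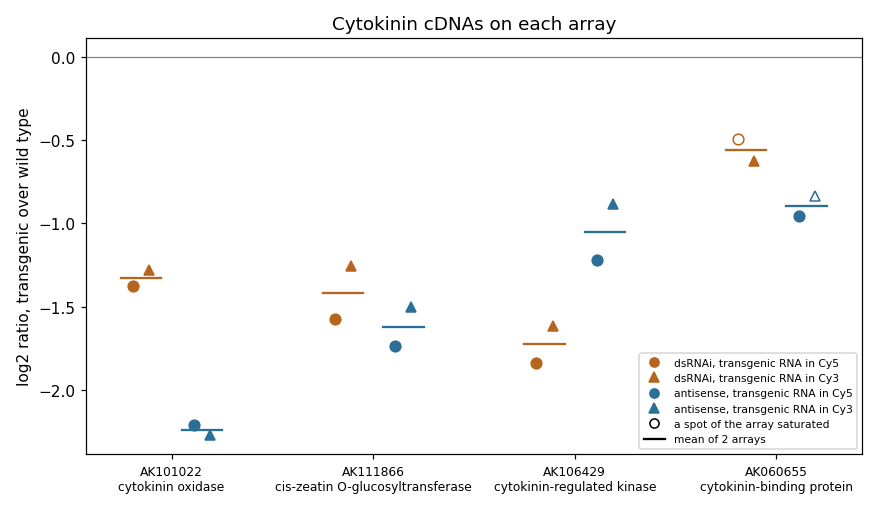
Log2 ratio of transgenic over wild type for the 4 cytokinin probes on each array, with dsRNAi left of antisense, circles for transgenic RNA in Cy5, triangles for Cy3, open symbols for an array with a saturated spot, and a line at the mean of each construct. All points lie below 0. AK101022 is lower on the antisense arrays (-2.21 and -2.27) and AK106429 on the dsRNAi arrays (-1.84 and -1.61).

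In the mean of both constructs, the comparison that chose the 4 members, limma called 21.3% of the 17997 probes lower and 20.5% higher. Among all tested probes 21.3% were below 0 on all 4 arrays, and 4.62% were called and at least 2-fold lower. Nothing about the members is read from these shares.

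The difference between constructs was not used to choose the probes and was tested. Of the 4 members 2 differed, 1 in each direction, where limma called 16.5% of all probes, 6.33% higher and 10.1% lower. For AK101022 the ratio was higher, and so its fall smaller, in dsRNAi than in antisense, by 0.91 ± 0.16 on the log2 scale (SE, 95% interval 0.55 to 1.28, limma adjusted p = 0.00698). With median centring instead of loess it was 1.05 (limma adjusted p = 0.9999), and in the deposited scanner ratios 0.90 (limma adjusted p = 0.0615), so the size was kept and the call was not. For AK106429 it was lower in dsRNAi, by -0.67 ± 0.19 (interval -1.11 to -0.24, limma adjusted p = 0.0472). The second call was close to the threshold of 0.05: without antisense array 2 the difference was -0.50 (limma adjusted p = 0.232), and without dsRNAi array 1 it was -0.56 (limma adjusted p = 0.149). For AK111866 the difference was 0.20, with an interval of -0.23 to 0.64, and for AK060655 it was 0.33, with an interval of -0.039 to 0.71. Neither passed, and neither interval excludes a sizeable difference.

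The 2 channels of each array were then compared separately, since a difference between constructs can lie in the transgenic or the wild type RNA. For AK101022 the larger difference was between the wild type channels, and the transgenic channels differed in the same direction by less. Its log2 level was 7.88 ± 0.061 in dsRNAi and 8.42 ± 0.049 in antisense panicles, against 9.21 ± 0.0083 in the wild type panicles on the dsRNAi arrays and 10.66 ± 0.094 in those on the antisense arrays (SD, n = 2). The wild type channels of the dsRNAi arrays were lower than those of the antisense arrays by -1.45 ± 0.12 (SE, interval -1.72 to -1.17, limma adjusted p = 1.96e-05). The transgenic channels differed by -0.53 ± 0.12 (interval -0.80 to -0.26, limma adjusted p = 0.0523), which passed when probes were not filtered (limma adjusted p = 0.0482). The order of the 4 levels, wild type on antisense arrays, wild type on dsRNAi arrays, antisense and dsRNAi, was the same in both dye orientations.

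Such differences between the wild type samples were common. Limma called 32.3% of all probes between the wild type channels of the 2 constructs and 2.56% between the transgenic channels. With a dye term in the fit, 1493 probes were called higher and 1196 lower in the wild type channels, and 22 higher and 0 lower in the transgenic channels. Of the 4 members, AK101022 was called in the wild type channels and 0 were called in the transgenic channels. AK106429 had a log2 level of 10.66 ± 0.49 in dsRNAi and 10.49 ± 0.35 in antisense panicles, against 12.39 ± 0.65 and 11.54 ± 0.59 in the wild type panicles on the same arrays. Its transgenic levels overlapped between constructs, with a difference of 0.17 (interval -0.55 to 0.90). Its wild type channels differed by 0.85 ± 0.33 (interval 0.12 to 1.57, limma adjusted p = 0.0719). That difference was 1.26 without antisense array 1 (limma adjusted p = 0.00239) and 1.31 without dsRNAi array 2 (limma adjusted p = 0.033), but 0.43 without antisense array 2 (limma adjusted p = 0.34) and 0.39 without dsRNAi array 1 (limma adjusted p = 0.421). For AK111866 the wild type channels differed by -0.25 (interval -0.64 to 0.14) and the transgenic channels by -0.046 (interval -0.44 to 0.35). For AK060655 these differences were -0.15 (interval -0.62 to 0.32) and 0.18 (interval -0.29 to 0.66), neither past the threshold.

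**Figure D2:**
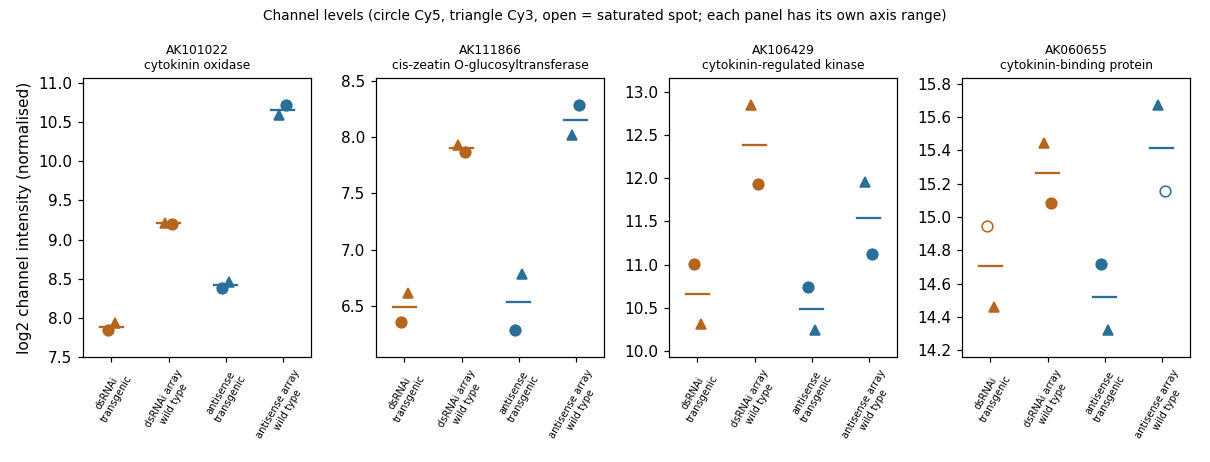
Normalized log2 level of the 4 cytokinin probes in each channel, with transgenic left of wild type within each construct, circles for Cy5, triangles for Cy3, open symbols for saturated spots and lines at the means; each panel has its own axis range. In AK101022 the wild type panicles on the antisense arrays (mean 10.66) stand above those on the dsRNAi arrays (mean 9.21), while the transgenic means are 8.42 and 7.88.

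Dye orientation, which each construct holds in both directions, passed the test for none of the 4 probes. Limma called 0 of 17997 probes for dye, with 1860 at an unadjusted p under 0.05. The dye effect on the log2 ratio is given as the distance of arrays with transgenic RNA in Cy5 from the mean of both orientations. It was -0.0088 for AK101022, -0.14 for AK111866, -0.14 for AK106429 and 0.0022 for AK060655.

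Of 5 other tested cDNAs with the same description as a member, 1 fell and 0 rose in the mean of both constructs. In that mean 21.3% of all probes fell and 20.5% rose. Of 6 probes described as cytokinin oxidase or dehydrogenase, 5 were tested in the mean of both constructs, and of the 4 that are not AK101022 1 passed. AK109624, matched to a maize cytokinin oxidase, was higher on every array, by 0.64 and 0.34 on the dsRNAi arrays and 0.78 and 0.93 on the antisense arrays. Its mean was 0.68 ± 0.088 (SE, limma adjusted p = 0.000591). It was well above background in all 4 transgenic channels but in only 1 of 4 wild type channels, so it was kept through the channels in which it is high and its size is uncertain. The mean was 2.19 in the deposited scanner ratios, and its call was lost with median centring (0.58, limma adjusted p = 0.567). The barley dehydrogenase 2 relatives AK100353 and AK103272 had means of 0.000213 and 0.059, the CKX5 relative AK109251 had 0.16, and none of these passed. AK109251 passed in the deposited scanner ratios, at 0.80 (limma adjusted p = 0.0261). It was well above background in 4 transgenic channels but only 1 wild type channel, so its size is uncertain too. AK103510, also matched to CKX5, was not tested, being too dim.

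A second ciszog1 relative, AK101107, had a mean of -0.068 ± 0.077 (limma adjusted p = 0.522), beside the -1.52 of AK111866. Both its channels were lower in dsRNAi than in antisense arrays, by -0.63 in transgenic panicles (limma adjusted p = 0.0273) and -0.71 in wild type panicles (limma adjusted p = 0.00127). The transgenic channel call was not kept with a dye term, where 0 of all probes were called lower. Other alternative runs on the channels were not read for this probe. Among 3 other tested CRK1 relatives 0 passed, with means of -0.21 for AK106925, 0.21 for AK109788 and 0.21 for AK109954, and AK109679 was not tested. AK109954 passed in the deposited scanner ratios, at 1.19 (limma adjusted p = 0.00171), and with an offset of 10, at 0.42 (limma adjusted p = 0.0125). It also passed in the series table, at 0.79 (limma adjusted p = 0.0113), and at 0.21 with a dye term (limma adjusted p = 0.0468) or an intensity trend (limma adjusted p = 0.0322). AK109954 was well above background in 3 transgenic and 0 wild type channels. It was thus kept through the channels in which it is high, and its size is uncertain.

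The second tested CBP1 relative, AK068276, was named after its values were seen, because its constructs went opposite ways. Its log2 ratio was -1.80 and -1.53 on the dsRNAi arrays and 0.44 and 0.22 on the antisense arrays. Its mean over both constructs was -0.67 (limma adjusted p = 0.000649), a call that was lost with construct as a random block (limma adjusted p = 0.348) and with median centring (limma adjusted p = 0.664). The dsRNAi mean of -1.67 passed (limma adjusted p = 9.54e-05), the antisense mean of 0.33 did not (limma adjusted p = 0.0802), and the difference was -1.99 (limma adjusted p = 0.000483). Its transgenic channels differed by 0.12 (limma adjusted p = 0.773) and its wild type channels by 2.12 (limma adjusted p = 1.3e-05). The CBP1 relatives AK109008 and AK108011 were not tested.

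Of 14 tested signalling probes, 9 rose, 1 fell and 4 did not pass in the mean of both constructs, where 20.5% of all probes rose and 21.3% fell. Their median log2 ratio was 0.44, beside -0.0016 over all probes. In dsRNAi 6 rose and 0 fell, where limma called 11.2% of all probes higher and 14.6% lower, and in antisense 9 rose and 1 fell, where it called 18.9% higher and 18.3% lower. With construct as a random block 4 of the 14 rose and 0 fell in the mean. When loess was replaced by median centring, 3 rose and 0 fell.

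Both tested histidine kinases, the receptor step, rose in the mean of both constructs, where 20.5% of all probes rose and 21.3% fell. AK067580, matched to the Arabidopsis cytokinin receptor AHK3 and named after its values were seen, was higher by 1.06 and 1.38 on the dsRNAi arrays and 1.39 and 1.88 on the antisense arrays, with a mean of 1.43 ± 0.11 (limma adjusted p = 3.39e-05). AK060709, matched to the maize histidine kinase ZmHK1, had a mean of 0.46, with 0.18 in dsRNAi, which did not pass (limma adjusted p = 0.346), and 0.75 in antisense. Both phosphotransfer proteins, which carry the phosphate on, also rose in the mean of both constructs, set against the same shares. AK072521 had a mean of 0.57, with 0.27 in dsRNAi, which did not pass (limma adjusted p = 0.122), and 0.86 in antisense. AK061111 had a mean of 0.42, with 0.41 in dsRNAi and 0.43 in antisense.

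Of 10 tested response regulators 5 rose and 1 fell in the mean of both constructs, where 20.5% of all probes rose and 21.3% fell. They were counted together whichever maize regulator they were matched to. All 4 probes matched to maize ZmRR9 were among those that rose, with means from 0.66 to 1.47, and may come from the same gene. AK106426, matched to ZmRR3, also rose, with a mean of 0.32 (limma adjusted p = 0.017), but did not pass in dsRNAi (0.19, limma adjusted p = 0.287). The probes matched to ZmRR5, ZmRR7 and ZmRR8 did not pass in the mean of both constructs. AK099581 was higher by 1.29 and 0.92 on the dsRNAi arrays and 2.01 and 1.66 on the antisense arrays, with a mean of 1.47 ± 0.10 (limma adjusted p = 2.02e-05). AK101165 was higher by 0.79 and 0.57 on the dsRNAi arrays and 1.62 and 1.61 on the antisense arrays, with a mean of 1.15 ± 0.081 (limma adjusted p = 2.37e-05). AK058585, matched to ZmRR6, fell, with ratios of -0.78 and -0.097 on the dsRNAi arrays and -1.48 and -1.40 on the antisense arrays and a mean of -0.94 ± 0.12 (limma adjusted p = 0.000476). In the construct means AK058585 passed in antisense and not in dsRNAi (limma adjusted p = 0.0969). Its call in the mean was lost with construct as a random block (limma adjusted p = 0.0689) and with median centring (limma adjusted p = 0.109).

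**Figure D3:**
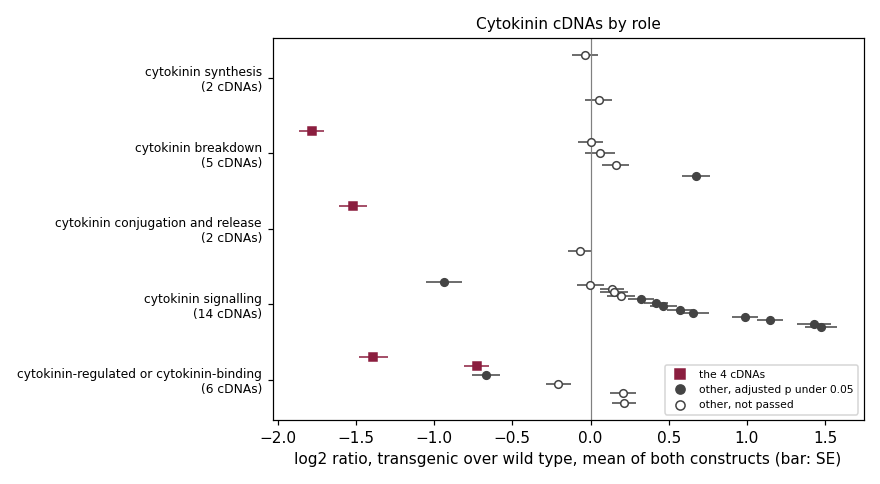
Log2 ratio of transgenic over wild type in the mean of both constructs (x axis) for each tested cDNA of the cytokinin lists (y axis, by role), with bars for the SE; red squares are the 4 members, filled circles other cDNAs that passed limma's test and open circles those that did not. The signalling cDNAs lie mostly above 0 (median 0.44), and the 4 members, chosen for low values, lie below 0.

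Neither synthesis probe passed in the mean of both constructs. The 2 probes matched to the Arabidopsis adenylate isopentenyltransferase AtIPT1, which makes cytokinins, had means of 0.052 (AK071216, limma adjusted p = 0.677) and -0.034 (AK107474, limma adjusted p = 0.779). AK071216 was lower by -0.45 in the wild type channels of the dsRNAi than of the antisense arrays (limma adjusted p = 0.0477), and in the deposited scanner ratios its dsRNAi minus antisense difference was 1.67 (limma adjusted p = 0.0323). In the fit reported here that difference was 0.34 (limma adjusted p = 0.253), and over all runs it lay between -0.033 and 1.67. This probe was well above background in only 2 wild type channels, so these sizes are uncertain. Leaving out the members, 25 of 31 cytokinin probes were tested, and 10 rose and 2 fell with a median of 0.20, where 20.5% of all probes rose and 21.3% fell. With construct as a random block 5 of the 25 rose and 0 fell, and with median centring 3 rose and 0 fell. Of 7 tested methyl cycle probes 1 rose and 2 fell, against the same shares over all probes. The S-adenosylmethionine synthetase AK103157 had a mean of 0.51, the adenosine kinase AK059771, an enzyme that also acts on cytokinin ribosides, -0.29 (limma adjusted p = 0.0225), and the S-adenosylhomocysteine hydrolase AK059712 -0.30 (limma adjusted p = 0.0243). All 3 calls were lost with construct as a random block (limma adjusted p = 0.206 for AK103157, 0.189 for AK059771 and 0.317 for AK059712). They were lost with median centring too (limma adjusted p = 0.606, 0.892 and 0.803 in that order). The calls of AK059771 and AK059712 were also lost with the deposited scanner ratios, an offset of 10 and the series table, and that of AK059712 with an intensity trend. AK059712 had 1 saturated transgenic spot and 1 saturated wild type spot. Without antisense array 1, AK059771 was at -0.32 (limma adjusted p = 0.0523) and AK059712 at -0.25 (limma adjusted p = 0.146). Without dsRNAi array 1, AK059771 was at -0.26 (limma adjusted p = 0.0755) and AK059712 at -0.25 (limma adjusted p = 0.0929), and without antisense array 2 AK059771 was at -0.25 (limma adjusted p = 0.129).

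Other glucosyltransferases, whose substrates the descriptions mostly do not give, went both ways. Of 46 tested, 16 rose and 9 fell, where 20.5% of all probes rose and 21.3% fell, and their median was 0.0095. AK104985, matched to an Arabidopsis glucosyltransferase, had a mean of 2.72, with 1.65 and 1.81 on the dsRNAi arrays and 3.63 and 3.78 on the antisense arrays. AK108674, matched to a Citrus limonoid glucosyltransferase, had a mean of -2.02, with -1.04 and -0.83 on the dsRNAi arrays and -3.37 and -2.85 on the antisense arrays. AK108114 and AK063324 had means of 2.32 and -1.53.

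The 4 members did not follow the same profile over the 8 channels. With each probe's mean taken off, the root mean square difference between members ran between 0.49 for AK101022 with AK111866 and 0.962 for AK101022 with AK106429 (log2 scale). Among 17997 profiles, of which 10853 had a described product, the described probe nearest to AK101022 was AK109708, a putative trehalose 6-phosphate synthase, at 0.0673. For AK111866 it was AK098880, a UDP-glucose dehydrogenase, at 0.106, and for AK060655 AK068465, a cDNA matched to Arabidopsis, at 0.111. AK106429 had no neighbour as near, with the HSP70 cDNA AK109474 at 0.31. Next came AK108910, a putative protein kinase, at 0.133 from AK101022, the amino acid transporter AK102763 at 0.117 from AK111866, the sphingolipid desaturase AK101968 at 0.322 from AK106429, and the peroxidase AK069281 at 0.13 from AK060655. Many probes shared most of these profiles: 68 lay within 0.3 of AK101022, 180 of AK111866 and 517 of AK060655, but 0 of AK106429. The distances rest on 4 arrays whose channels share spots.

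**Figure D4:**
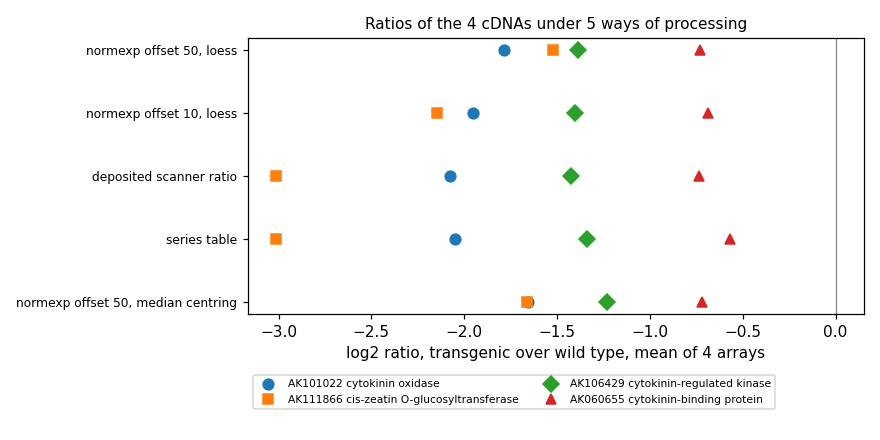
Mean log2 ratio of transgenic over wild type over 4 arrays for each of the 4 probes under 5 ways of processing the same spots. All values are below 0. AK111866 (which nearly covers AK101022 under median centring, both at -1.66) moves most, with -1.52 as reported, -2.15 with a normexp offset of 10 and -3.01 in the deposited ratios.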

How the data were processed

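Per the file headers, the authors read the spot intensities with Agilent Feature Extraction (8.1.1.1 for antisense, 9.1.3.1 for dsRNAi arrays). That software also gave the deposited log10 ratios (red over green). The deposited series table of log2 ratios was used as an alternative only. Its processing and centring are not given in the sources used here, and its rows were matched by probe name order, which gave correlations of 0.959, 0.975, 0.839 and 0.852 with the scanner ratios of antisense 1 and 2 and dsRNAi 1 and 2. Turned to transgenic over wild type, its column medians were -0.0046, -0.0366, 0.0842 and 0.0521 in the same order.

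Labels of the dye fields were followed where the labelling text named the other dye. Probes are named by the files' cDNA accession and description, and 0 accessions matched the reference gene table. Foreground means and background medians went through limma 3.58.1 (R 4.3.3) normexp with offset 50 and loess within arrays, with outlier spots left out. A probe was kept if 2 or more arrays had either channel well above background (18096 probes), and 17997 of these had all values. Log2 ratios, as transgenic over wild type on every array, were fitted with 1 coefficient per construct, eBayes and Benjamini-Hochberg adjustment at 0.05. Channels were fitted with lmscFit after Aquantile (intraspot correlation 0.241). Rules for named genes took all breakdown and conjugation probes, at most 2 probes in each direction from other lists by adjusted p, and the 2 nearest profiles of each member. AK067580 and AK068276 were added after their values were seen. AK060709, AK072521, AK061111, AK106426 and AK106925 are named outside these rules too, and so are the untested AK109679, AK109008 and AK108011. The alternative runs took in these tested probes only within the counts of the lists. The members and lists were chosen with earlier results of these data known. The number of arrays limits the precision. The fits were tested on simulated data.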

Additional observations from a re-analysis of the deposited data

Results flagged for a closer look

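These results differed between the constructs by limma's test of dsRNAi minus antisense on the log2 ratio, in which 16.5% of all probes were called. Among the members they are AK101022 (0.91) and AK106429 (-0.67). Among signalling probes they are the ZmRR9 relatives AK099581 (-0.73, limma adjusted p = 0.0489) and AK101165 (-0.93, limma adjusted p = 0.00774) and the ZmRR6 relative AK058585 (1.00, limma adjusted p = 0.0256). The CBP1 relative AK068276 (-1.99) and the S-adenosylmethionine synthetase AK103157 (-0.89, limma adjusted p = 0.0192) were lower in dsRNAi. Of the glucosyltransferases, AK104985 (-1.98) and AK108114 (-1.32) were lower and AK108674 (2.17) higher in dsRNAi.

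For 4 of the 10 the call was lost without 1 array. AK106429 was at -0.50 without antisense array 2 and at -0.56 without dsRNAi array 1. AK099581 was at -0.55 without antisense array 1 (limma adjusted p = 0.198) and at -0.54 without dsRNAi array 2 (limma adjusted p = 0.153). AK058585 was at 0.66 without dsRNAi array 2 (limma adjusted p = 0.0616), and AK103157 at -0.69 without dsRNAi array 1 (limma adjusted p = 0.0643). In the channels, AK104985 differed by -0.066 in transgenic and 1.91 in wild type panicles, and AK108674 by 0.10 in transgenic and -2.07 in wild type panicles. With median centring instead of loess none of the 10 differences passed, with sizes of -1.74 for AK068276, -1.74 for AK104985, -1.30 for AK108114 and 2.11 for AK108674.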

How the results depend on the processing

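No result changed sign with a call under any alternative run. For AK101022 the difference between constructs was 0.90 with the deposited scanner ratio (limma adjusted p = 0.0615) and 1.05 with median centring instead of loess (limma adjusted p = 0.9999), and its transgenic channels gave -0.53 with no filter (limma adjusted p = 0.0482). Its wild type channel call held under every alternative run made on the channels, with limma adjusted p between 1.08e-05 and 0.00371. The channels were not run with median centring, the deposited ratio, the series table or an intensity trend. For AK106429 the difference lost its call with the deposited ratio (-0.68), an intensity trend (-0.67), median centring (-0.42), no filter (-0.67), a normexp offset of 10 (-0.68) and the series table (-0.67), with limma adjusted p between 0.0525 and 0.9999. With each array left out in turn it ran between -0.84 and -0.50, and its wild type channels between 0.39 and 1.31. The mean of AK111866 was -3.01 with the deposited ratio, -2.15 with offset 10 and -3.01 with the series table. Median centring left 7 probes called higher and 25 lower in the difference between constructs, where loess gave 1140 and 1822, and 563 higher and 533 lower in the mean, where loess gave 3682 and 3826. A random block for construct gave 1215 higher and 1379 lower in the mean. The random block gave 4 signalling probes higher and 0 lower, and median centring 3 and 0. Of the cytokinin probes that are not members, 5 rose and 0 fell with the random block, and 3 and 0 with median centring. Transgenic channels gave 237 probes higher and 223 lower, against 22 and 0 with a dye term, 90 and 7 with no normalization between arrays, 100 lower with offset 10, and 66 to 207 higher and 8 to 102 lower with 1 array left out. Wild type channels gave 2887 higher and 2934 lower, against 1493 and 1196 with a dye term, 1163 lower with no normalization between arrays, and 1895 to 2454 higher and 1787 to 2194 lower with 1 array left out. Among 823 values of other named probes, 55 lost a call, 20 of them under median centring, and 10 gained one. The cause of these changes was not tested. Channel fits with 1 array left out kept the correlation of all 4 arrays, a choice made after seeing the data. The lone array of a construct is then assumed to vary like the others. Both samples of an array are paired in its ratio. Beyond that, no paired analysis was possible because the labels give no replicate numbers that link arrays of the 2 constructs. Among the members, signal over background limits AK111866, and saturation limits AK060655.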
